A study of Mus musculus with 12 samples.

Results

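Microglia are the resident macrophages of the retina, and complement is the group of secreted proteins that they, and other retinal and vascular cells, use to tag material for removal. Transcripts of 10 genes of these systems were followed in mouse retina after deletion of Otx2 in photoreceptors. The genes were taken by name: the C1q chains C1qa, C1qb and C1qc, the complement components C3 and C4b, and the microglial genes Cx3cr1, Csf1r, Aif1, Trem2 and Tyrobp. All 10 were found among the 54146 genes counted, and all 10 were among the 18628 genes that passed the filter on low counts and were tested.

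Whole-retina RNA, which by the study's account includes RNA of the pigment epithelium, was sequenced from 12 mice on a 129/SV background, with 1 library per mouse. The groups were P30 control mice (mice 1 to 3) and mice with a conditional knockout (cKO) at P32 (mice 4 to 6), P34 (mice 7 to 9) and P38 (mice 10 to 12). The cKO mice carried Crx-CreERT2, whose promoter is active in photoreceptors, and Otx2 flox/flox, and were killed 2, 4 and 8 d after 1 tamoxifen injection at P30. The controls are labelled only as controls, without alleles, and the same tamoxifen treatment text is attached to all 12 samples while the study describes the controls as killed at 0 d. Age, tamoxifen and deletion therefore change together between P30 and the cKO groups and cannot be told apart.

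C1q is the recognition unit that starts the classical complement pathway, and its A, B and C chains are encoded by neighboring genes expressed together in microglia and macrophages. C4 and C2 are cleaved next, C3 is the central component on which all routes converge, and its fragments are read by receptors on microglia. CX3CR1 receives fractalkine from neurons, CSF1R receives CSF1 and IL34 and is needed for microglial survival, and TREM2 is a lipid-sensing receptor that signals through the adaptor TYROBP. AIF1, also called IBA1, is the actin-binding protein by which microglia are usually stained.

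Both C1q promoters for which a sequence was at hand are shown because the 3 C1q genes lie in 1 locus. The sequences run from 250 bases before to 50 bases after the start site (RefSeq, GRCm38.p6, minus strand, 5′ to 3′), and capitals mark GAGGAA, the core of sites of the myeloid factor PU.1, on either strand.
C1qb, chr4:136886151-136886450: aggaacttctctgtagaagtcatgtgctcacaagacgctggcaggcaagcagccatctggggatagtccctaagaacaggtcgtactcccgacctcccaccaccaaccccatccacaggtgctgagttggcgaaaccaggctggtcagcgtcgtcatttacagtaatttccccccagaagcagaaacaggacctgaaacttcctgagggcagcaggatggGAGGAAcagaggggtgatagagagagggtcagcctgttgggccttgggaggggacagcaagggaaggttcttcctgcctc
C1qc, chr4:136892865-136893164: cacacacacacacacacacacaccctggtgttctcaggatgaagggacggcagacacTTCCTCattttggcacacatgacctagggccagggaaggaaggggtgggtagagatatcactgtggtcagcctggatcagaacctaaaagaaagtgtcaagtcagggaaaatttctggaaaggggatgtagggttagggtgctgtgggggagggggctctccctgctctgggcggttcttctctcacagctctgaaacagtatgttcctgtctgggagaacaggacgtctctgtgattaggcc
The match lay 30 bases before the start site in C1qb and 193 bases before it in C1qc. Promoters were matched for 6 of the 10 genes (C1qb, C1qc, C3, Cx3cr1, Aif1 and Trem2), and 4 of these (C1qb, C1qc, Aif1 and Trem2) held GAGGAA on either strand, beside 28.3% of all 32851 promoters of the same length. TAATCC, the core of OTX2 and CRX sites, was in 0 of the 6 and in 7.06% of all promoters. These are matches of letters in a fixed window and no measure of binding.

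The libraries held 29701483 to 60145034 counts on genes, so that 3 counts, taken as the limit of detection, correspond to 0.0473 to 0.102 CPM, the unit of all levels here, which divides a gene's counts by its library's total after TMM scaling in edgeR. The limit covers counting error only. Otx2 itself, counted over all exons, had 293, 328 and 315 CPM in the controls (P30). The P32 mice had 322, 340.3 and 372, the P34 mice 328, 331 and 377 and the P38 mice 377, 307 and 372. Its log2 fold change against P30 was 0.14 to 0.17 (adjusted p = 0.684 to 0.847, edgeR), and counts over the whole gene do not check the removal of 1 exon. The 10 photoreceptor genes on the marker lists summed to between 58026.5 and 106663 CPM in each of the 12 mice, as a retina would. P32 mouse 4 stood apart: genes with under 2000 exon bases lay 0.56 (median log2) above the average of the 12 mice, and genes over 6000 bases 0.36 below it. Genes of 4000 to 6000 bases, the class that holds Cx3cr1 and Csf1r, had a median of -0.09 in that mouse. All 3 P30 mice had the counts of females, while the cKO groups had 1 (P32), 2 (P34) and 2 (P38) mice with counts of males. In the P34 mice the summed CPM of 6 ciliary body and iris genes was 12.1 to 18.4, against 124 to 140.2 at P30, 58.5 to 149 at P32 and 57.4 to 105 at P38.

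All 10 genes were expressed at low levels in whole retina, and they are ordered here by their mean over the 12 mice. Per kilobase of exon, the mean over the 12 mice was 4.80 ± 0.849 CPM (SD, n = 12) for C1qb and 4.54 ± 0.756 for C1qa, which did not differ beyond their spread. Tyrobp (2.69 ± 0.707), Csf1r (2.49 ± 0.472) and C1qc (2.13 ± 0.376) followed, again with overlapping spreads. Cx3cr1 came next at 1.25 ± 0.283 CPM per kilobase and C4b at 1.09 ± 0.496, with overlapping spreads. Their order differed between groups, with C4b above Cx3cr1 in the P30 means (1.62 and 1.05 CPM per kilobase) and below it in the P34 means (0.545 and 1.41). C3 (0.563 ± 0.0911) and Aif1 (0.512 ± 0.182) could not be ranked against each other, and Trem2 was lowest at 0.290 ± 0.0570. Exon lengths are the summed exons of a gene in the annotation, so a gene with many annotated exons that are not used is understated on this scale. Rare transcripts limited the precision: Aif1 rested on 11 to 60 counts per mouse, Tyrobp on 29 to 122, and Csf1r on 325 to 788.

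**Figure D1:**
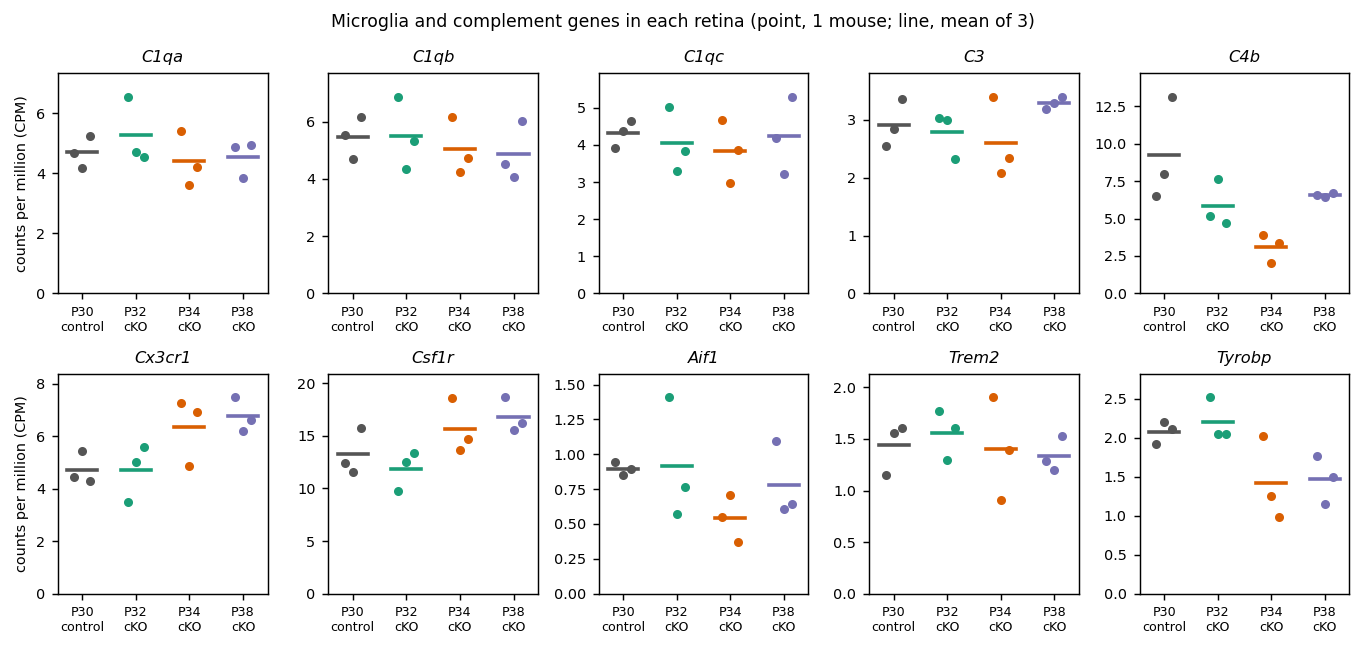
Level (CPM, linear axis from 0) of the 10 genes in each of 12 retinas, where a point is 1 mouse and a line the mean of the 3 mice of a group. The C1q genes, C3, Trem2 and Aif1 overlap between P30 and P38, C4b is lowest in the P34 mice at 2.01 to 3.92 CPM, and Cx3cr1 is higher in the 3 P38 mice (6.22 to 7.50 CPM) than in the 3 P30 mice (4.31 to 5.43 CPM).

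Of the 10 genes, C4b fell at P34, and no other gene passed the threshold against P30 at any age (edgeR's quasi-likelihood test, with a log2 fold change of 0.5 or more in either direction and an adjusted p, over all genes tested, of 0.05 or less). At P34, 1 of the 10 genes was called lower and 0 higher, beside 0.66% of all genes called lower. At P32 and at P38, 0 of 10 genes and 0.0% of all genes were called. Where p was not adjusted and the fold limit was kept, 1 of the 10 genes was lower at P32 (C4b, beside 1.77% of all genes), 1 was lower at P34 (C4b again, beside 5.42%), and 1 was higher at P38 (Cx3cr1, beside 0.805%). DESeq2 called none of the 10 at P32 or P38. Over the 10 genes the median log2 fold changes at P32, P34 and P38 were 0.00, -0.14 and -0.07, and those of all genes -0.01, 0.00 and -0.01. For the 9 cKO mice together against P30, 0 of the 10 genes was called, beside 0.36% of all genes called lower. In that comparison C4b alone of the members was lower where p was not adjusted, beside 2.66% of all genes. It was also the only member that DESeq2 called there (adjusted p = 0.0336), in a fit that called 145 of 18628 genes lower.

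Between cKO ages, edgeR called 0 of the 10 genes at P34 against P32 (0.242% of all genes), at P38 against P34 (0.199%) and at P38 against P32 (0.0%). By unadjusted p, C4b and Tyrobp were lower at P34 than at P32 (8.93% of all genes), C4b was higher at P38 than at P34 (3.01%), and Cx3cr1 and Csf1r were higher at P38 than at P32 (5.68%). P32 mouse 6 weighed on the background: without it, 2726 genes were called at P34 against P32 in place of 45, and 1946 at P38 against P32 in place of 0, with 1 (C4b) and 0 of the 10 genes among them. All 7 comparisons come from 1 fit, and those with P30 share the 3 control mice.

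**Figure D2:**
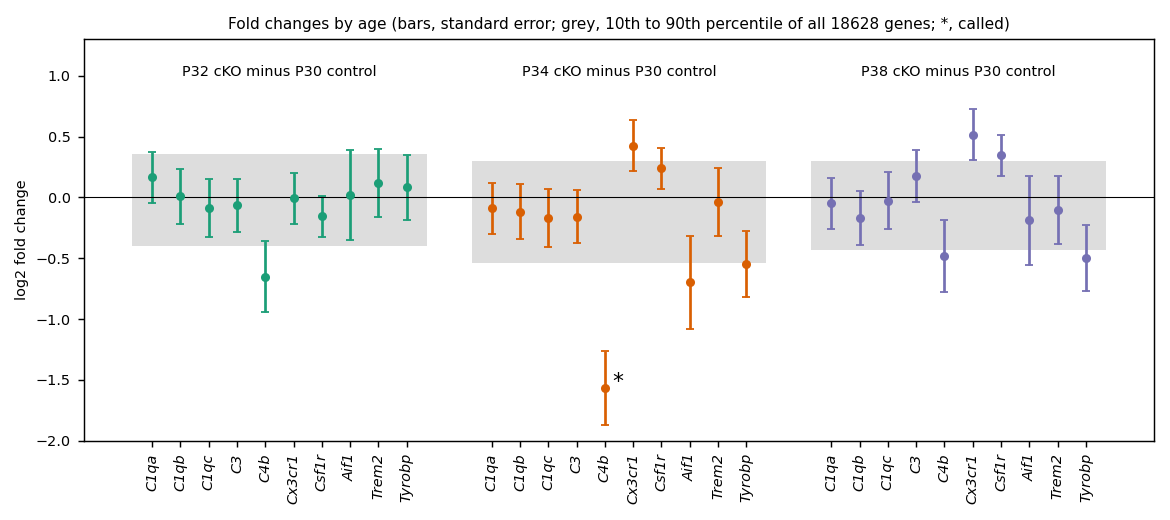
Log2 fold change (vertical axis) of the 10 genes against the P30 controls at P32, P34 and P38, as the fitted value and its standard error from edgeR with all 12 mice. The grey band runs from the 10th to the 90th percentile of all genes tested, and the star marks C4b at P34 (-1.57), the 1 value that passed the threshold.

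The 3 C1q genes differed between control and cKO retinas by less than the spread between mice. They occupy 18675 bases of chromosome 4 (GRCm38, 136880129 to 136898803, minus strand) in the order C1qb, C1qc, C1qa, with no other annotated gene inside. C1qa (ENSMUSG00000036887), the A chain, had 4.68, 4.16 and 5.23 CPM in the controls (P30). At P32 the mice had 6.54, 4.70 and 4.53, the P34 mice 5.41, 3.60 and 4.20 and the P38 mice 4.88, 3.82 and 4.92. The highest value was that of P32 mouse 4 and the lowest that of P34 mouse 8, and every cKO group overlapped the controls.

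C1qb (ENSMUSG00000036905), the B chain, had 5.54, 4.70 and 6.18 CPM in the controls (P30). In the P32 group the values were 6.87, 4.34 and 5.32, the P34 mice 6.16, 4.24 and 4.74 and the P38 mice 4.51, 4.06 and 6.04. C1qc (ENSMUSG00000036896), the C chain, had 3.93, 4.36 and 4.64 CPM in the controls (P30). Mice 4 to 6 (P32) had 5.01, 3.31 and 3.84, the P34 mice 4.67, 2.96 and 3.86 and the P38 mice 4.20, 3.21 and 5.30. Again P32 mouse 4 was highest or second highest, and the groups overlapped. The log2 fold changes of the 3 genes against P30 lay between -0.17 and 0.16 at the 3 ages, with standard errors of 0.21 to 0.24. The 95% interval of C1qa at P34 ran from -0.55 to 0.37 and that of C1qc at P38 from -0.54 to 0.49, so differences of about this size were not detectable at this depth and number of mice. The ratio of CPM of C1qb to C1qa, not corrected for length and compared between mice only, was 0.923 to 1.23, and that of C1qc to C1qa 0.703 to 1.08.

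C4b (ENSMUSG00000073418, chromosome 17, 34728380 to 34743882, minus strand) encodes complement C4, which is cleaved after C1q has bound. Its levels were 6.51, 8.00 and 13.1 CPM in the controls (P30). The P32 mice had 5.19, 7.65 and 4.71, the P34 mice 3.92, 2.01 and 3.39 and the P38 mice 6.60, 6.43 and 6.72. All 3 P34 mice lay below all P30, P32 and P38 mice, as 9.67% of all genes did against P30, while the P32 and P38 mice overlapped the controls. From 9.21 ± 3.47 CPM at P30 (SD, n = 3) it fell to 3.10 ± 0.986 at P34 (SD, n = 3), a 2.96-fold lower level in the fit. The log2 fold change was -1.57 (standard error 0.30, adjusted p = 0.0409, edgeR).

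The log2 fold changes of C4b at the other ages, -0.65 (P32, standard error 0.30, adjusted p = 0.698, edgeR) and -0.48 (P38, standard error 0.29, adjusted p = 0.847, edgeR), did not pass the threshold. The differences between cKO ages were tested as well. C4b at P34 against P32 gave a log2 fold change of -0.92 (adjusted p = 0.107, edgeR), and P38 against P34 gave 1.09 (adjusted p = 0.440, edgeR), so a lower level at P34 than at the other cKO ages did not pass. Without P32 mouse 6 the first of these passed (log2 fold change -1.05, adjusted p = 0.0480, edgeR). The P34 values lay below all P32 values in 13.6% of all genes, and the P38 values above all P34 values in 5.36%. DESeq2 called both differences (adjusted p = 0.0340 and 0.0485). Of 18628 genes it called 837 lower at P34 than at P32 and 137 higher at P38 than at P34, where edgeR called 45 and 37.

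The call of C4b at P34 was close to its threshold and was lost in 8 of the 12 fits that each left out 1 mouse, with log2 fold changes of -1.78 to -1.24 and adjusted p of 0.0234 to 0.168 over the 12. It held without P30 mouse 1 and without each of the P32 mice, and was lost without P30 mouse 2, P30 mouse 3, each P34 mouse and each P38 mouse. With the mean log2 CPM of the ciliary body and iris genes as a covariate, the log2 fold change was -0.28 (standard error 0.88, adjusted p = 0.915), and with the smooth muscle genes it was -0.72 (standard error 0.44, adjusted p = 0.9998). The ciliary covariate was 0.12 to 0.82 in the P34 mice and 2.18 to 3.65 in the other mice, so that it and the P34 group can hardly be told apart, and the fit with it called 0 of all genes at P34. The smooth muscle fit called 8 of all genes there. C4b has a near-identical copy, C4a, which had 0.525 to 1.63 CPM in the 12 mice, and since reads with several positions were not counted, how reads divide between them is uncertain.

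C3 (ENSMUSG00000024164, chromosome 17, 57203970 to 57228136, minus strand), the central component, had 2.54, 2.85 and 3.36 CPM in the controls (P30). At P32 the mice had 3.03, 3.00 and 2.32, the P34 mice 3.40, 2.08 and 2.34 and the P38 mice 3.18, 3.28 and 3.39. Every cKO group overlapped the controls. Its log2 fold changes against P30 were -0.07, -0.16 and 0.18 at P32, P34 and P38, each with a standard error of 0.22 and an adjusted p of 0.852 or more (edgeR). The 3 P38 mice lay above the 3 P32 mice, with a log2 fold change of 0.24 between them (adjusted p = 0.509, edgeR) and 13.3% of all genes ordered in this way.

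Cx3cr1 (ENSMUSG00000052336, chromosome 9, 119901616 to 120069879, minus strand), the fractalkine receptor, had 4.46, 5.43 and 4.31 CPM in the controls (P30). In the P32 group the values were 3.51, 5.01 and 5.59, the P34 mice 7.29, 4.87 and 6.94 and the P38 mice 7.50, 6.22 and 6.62. All P38 mice were above all P30 mice, and at P34 mouse 8 alone fell within the P30 range. Against P30 it gave log2 fold changes of -0.01 at P32, 0.43 at P34 and 0.52 at P38, each with a standard error of 0.21 (adjusted p = 0.994, 0.514 and 0.847, edgeR). The value at P38 had an unadjusted p of 0.0303, and 8.23% of all genes had their 3 P38 values above their 3 P30 values.

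Csf1r (ENSMUSG00000024621, chromosome 18, 61100598 to 61132149, plus strand), the receptor for CSF1 and IL34, had 12.4, 11.5 and 15.8 CPM in the controls (P30). Mice 4 to 6 (P32) had 9.75, 12.5 and 13.4, the P34 mice 18.6, 13.6 and 14.7 and the P38 mice 18.7, 15.6 and 16.2. Its P34 and P38 mice lay above all P32 mice, as in 14.8% and 13.3% of all genes, and P30 mouse 3 overlapped both. Against P30, edgeR gave a log2 fold change of 0.24 at P34 (adjusted p = 0.653) and of 0.35 at P38 (adjusted p = 0.847), both with a standard error of 0.17.

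Between P38 and P32 the log2 fold change was 0.52 for Cx3cr1 (adjusted p = 0.175, edgeR) and 0.50 for Csf1r (adjusted p = 0.137, edgeR). Both were lowest in P32 mouse 4. Their exon lengths, 4505 and 5774 bases, lie in the class of 4000 to 6000 bases, which had a median of -0.09 (log2) in that mouse. Whether length accounts for their low levels was not tested. Without mouse 4 the log2 fold changes between P38 and P32 were 0.35 and 0.38 (adjusted p = 0.474 and 0.381, edgeR). In the annotation Cx3cr1 spans several other genes and Csf1r overlaps Hmgxb3 on the opposite strand, and the strand option of the counting is not stated, so a part of their reads could belong to neighbors.

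Trem2 (ENSMUSG00000023992, chromosome 17, 48346401 to 48354147, plus strand) had 1.15, 1.55 and 1.60 CPM in the controls (P30). The P32 mice had 1.77, 1.29 and 1.60, the P34 mice 1.91, 0.906 and 1.39 and the P38 mice 1.29, 1.20 and 1.53. The groups overlapped, and the log2 fold changes against P30 were 0.12, -0.04 and -0.10 (standard errors 0.28). Its adaptor Tyrobp (ENSMUSG00000030579, chromosome 7, 30413760 to 30417585, plus strand) had 1.92, 2.20 and 2.11 CPM in the controls (P30). At P32 the mice had 2.52, 2.04 and 2.05, the P34 mice 2.02, 1.25 and 0.982 and the P38 mice 1.77, 1.15 and 1.49. All P38 mice were below all P30 mice, an order seen in 7.96% of all genes, and at P34 only mouse 7 reached the P30 range. Tyrobp was also lower in all 3 P38 than in all 3 P32 mice, like 13.2% of all genes. The log2 fold change of Tyrobp against P30 was -0.55 at P34 (adjusted p = 0.513) and -0.50 at P38 (adjusted p = 0.847), with standard errors of 0.27 in edgeR. Receptor and adaptor were not tested against each other.

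Aif1 (ENSMUSG00000024397, chromosome 17, 35170991 to 35176068, minus strand) had 0.946, 0.848 and 0.891 CPM in the controls (P30). In the P32 group the values were 1.41, 0.569 and 0.764, the P34 mice 0.552, 0.710 and 0.372 and the P38 mice 1.09, 0.610 and 0.645. The P34 mice, with 11 to 29 counts each, lay below all P30 mice, as did 9.67% of all genes. The log2 fold change at P34 was -0.70 (standard error 0.38, adjusted p = 0.548, edgeR), with a 95% interval from -1.53 to 0.13. In bulk retina, fewer cells of a type and less RNA per cell cannot be told apart for Aif1 or for any of the other genes.

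**Figure D3:**
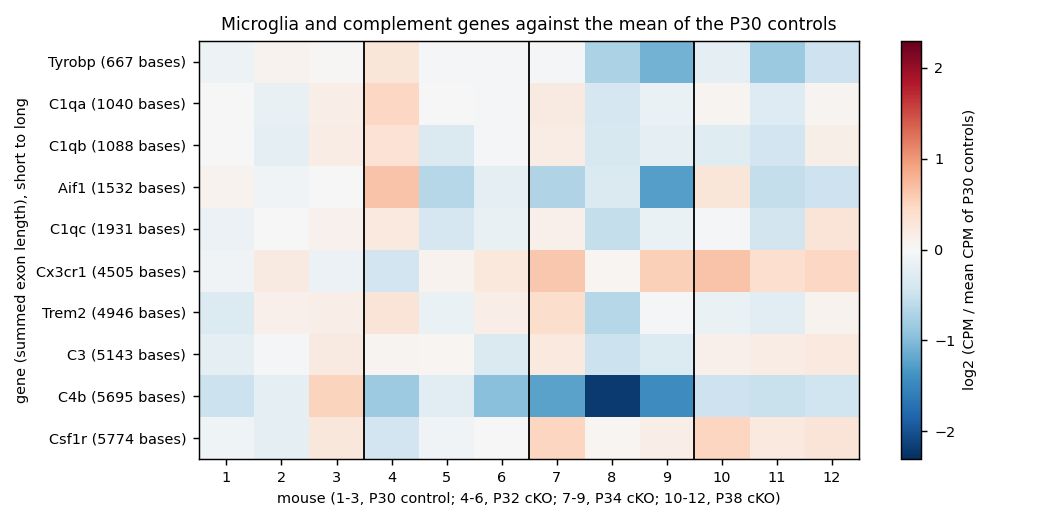
Log2 ratio of each mouse's CPM to the mean CPM of the P30 controls (color), for the 10 genes ordered by summed exon length from the shortest at the top (667 to 5774 bases), with 1 column per mouse. Mouse 4 is above the P30 mean in the shorter genes Tyrobp (0.28), C1qa (0.48), C1qb (0.33), Aif1 (0.66) and C1qc (0.22) and in the longer Trem2 (0.30) and C3 (0.056), and below it in Csf1r (-0.44), Cx3cr1 (-0.43) and C4b (-0.83), and C4b is below it in P34 mice 7 to 9.

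In P32 mouse 4 the members with under 2000 exon bases went the way of their length class, while the longer ones differed among themselves. The 5 genes under 2000 exon bases (Tyrobp, C1qa, C1qb, Aif1 and C1qc) were all above the P30 mean, while of the 5 longer genes Trem2 and C3 were above it as well, and Cx3cr1, C4b and Csf1r were below it, so that the longer genes were not ordered by length. The ratio of Csf1r to the sum of the C1q genes, in CPM, was 0.529 in mouse 4 and 0.873 to 1.40 in the other 11 mice. Without mouse 4, the log2 fold change at P32 against P30 changed from 0.16 to -0.02 for C1qa, from 0.01 to -0.18 for C1qb, from 0.02 to -0.42 for Aif1 and from -0.15 to -0.03 for Csf1r, and none of the 10 genes was called in either fit.

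None of the other markers of homeostatic microglia was called. Of 13 genes of homeostatic microglia, 13 were tested and 0 were called against P30 at any age, with a median log2 fold change of -0.10, -0.17 and 0.01 at the 3 ages in order. P2ry12, a purinergic receptor that defines resident microglia, had 3.36 to 6.10 CPM in the 12 mice, and Tmem119, another defining gene, 1.56 to 2.95 CPM. Sparc, a matrix-binding glycoprotein that other retinal cells also make, had 402 to 603 CPM at P30 and 287 to 369.97 CPM at P34 (log2 fold change -0.69, adjusted p = 0.443, edgeR). P2ry12 and Tmem119 were picked for the text after their values were seen.

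A wider set of 24 myeloid and immune genes gave 0 calls at any age, with 0 higher and 3 lower at P34 by unadjusted p (5.42% of all genes lower) and a median log2 fold change of -0.30 at P34. Ctss, the microglial cathepsin S, had 10.9 to 18.6 CPM, with overlapping groups. The 8 genes for ligands and signals that microglia receive were uncalled too, with median log2 fold changes of 0.03, 0.02 and -0.10 at P32, P34 and P38. Cx3cl1, the ligand of CX3CR1, had 90.6 to 136 CPM and Cd47, a signal against engulfment, 98.2 to 148 CPM. Il34, which with Csf1 is a ligand of CSF1R and was picked after its values were seen, had 8.45 to 12.6 CPM.

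Among 22 genes of disease-associated microglia, 18 were tested. None was called at P32 or P38, and Gpnmb and Ch25h were called lower at P34. The median log2 fold change of the 18 was -0.42 at P34, where 16 were negative, 6 were lower by unadjusted p (5.42% of all genes) and the 2 named were called lower (0.66%), and it was -0.08 at P32 and -0.21 at P38. Gpnmb, a glycoprotein also known as a melanosome gene, had 19.1, 184 and 164 CPM at P30 and 6.86 to 8.80 CPM at P34 (log2 fold change -3.92, adjusted p = 0.0310, edgeR). Pmel, a melanosome protein, had 25.1, 258 and 202 CPM in the same P30 mice, and a link between Pmel and Gpnmb was not tested. Ch25h, cholesterol 25-hydroxylase, had 39, 39 and 11 counts at P30 and 1, 1 and 0 counts at P34 (adjusted p = 0.0427, edgeR), and 27, 27 and 8 counts at P38. Neither was called with the ciliary, smooth muscle or border macrophage covariate, under which the log2 fold changes were, in that order, 0.34, 0.12 and -1.29 for Gpnmb and 0.79, -4.31 and -2.51 for Ch25h. Those fits called 0, 8 and 0 of all genes at P34, so the lost calls do not single out Gpnmb or Ch25h. A robust fit did not call Gpnmb at P34 either (adjusted p = 0.0992, edgeR). In the 9 cKO mice together Gpnmb was called lower (log2 fold change -3.49, adjusted p = 0.0125, edgeR), and the call was lost without P30 mouse 2 or P30 mouse 3 (adjusted p = 0.0822 and 0.0902, edgeR). That call was also lost with the smooth muscle (-0.09), ciliary (-1.54), border macrophage (-2.13) and sex (-3.70) covariates. The smooth muscle, ciliary and border macrophage fits called 0 of all genes in that comparison, and the sex fit 21. At P34, of the 12 fits that left out 1 mouse, 5 kept the call of Gpnmb (without P30 mouse 1, P32 mice 4, 5 and 6, or P38 mouse 12) and 3 that of Ch25h (without P32 mouse 4, P32 mouse 6 or P38 mouse 12). Apoe, the lipid carrier that leads this list in microglia and that Müller glia also make, had 480 to 526 CPM at P30 and 277 to 364 CPM at P34 (log2 fold change -0.60, adjusted p = 0.313, edgeR). The genes most tied to activated microglia were rare, with at most 0.687 CPM for Clec7a, 0.242 CPM for Itgax and 0.0493 CPM for Cst7 in any mouse. Apoe, Clec7a, Itgax and Cst7 were picked after their values were seen.

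Of 16 genes of border macrophages, the macrophages of vessels, ciliary body and meninges, 11 were tested. Mrc1, the mannose receptor, was called lower at P34 and no gene of the list at P32 or P38. Mrc1 had 0.568, 0.929 and 1.25 CPM in the controls (P30). Mice 4 to 6 (P32) had 0.540, 0.388 and 0.394, the P34 mice 0.110, 0.220 and 0.0677 and the P38 mice 0.655, 0.539 and 0.611. The P34 mice lay below every other mouse, an order that 9.67% of all genes showed against P30. The log2 fold change of Mrc1 against P30 was -2.69 (standard error 0.43, adjusted p = 0.0141, edgeR). The call was lost without P30 mouse 2, P30 mouse 3, P34 mouse 7 or P34 mouse 9 (adjusted p of 0.0562 to 0.0930 in edgeR). It was also lost with the ciliary (-2.64), smooth muscle (-1.68) and border macrophage (-2.33) covariates. Those fits called 0, 8 and 0 of all genes at P34, and the border macrophage score includes Mrc1, so these losses do not single out Mrc1. The list's median log2 fold change at P34 was -1.41, with 8 of 11 genes lower by unadjusted p (5.42% of all genes), among them Stab1 (-1.14), H2-Aa (-2.02), Cd74 (-1.41) and Lyz2 (-1.40), chosen after their values were seen. The summed CPM of the list was 25.9 to 28.8 at P34 against 32.5 to 39.2 at P30, while Lyve1, also expressed by other retinal cells, made 20.1 to 21.7 CPM of the sum at P34. Ccr2, which defines monocytes, had at most 0.117 CPM in any mouse.

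Within the complement pathway, most components beyond the members were low or absent. Of 10 further genes of the classical and lectin pathways, 8 were tested, and C2 alone was called, lower in the 9 cKO mice together. C2, which is cleaved with C4, had 1.03, 4.42 and 4.28 CPM at P30 and 0.588 to 1.17 CPM in the cKO mice (log2 fold change -1.93, standard error 0.34, adjusted p = 0.0352, edgeR). P30 mouse 1 lay within the cKO range, so that the difference came from P30 mice 2 and 3. Those 2 mice also had the highest levels of smooth muscle genes, at 179 and 197 summed CPM against 28.9 in P30 mouse 1 and 9.11 to 47.4 in the cKO mice. With the smooth muscle score as a covariate the log2 fold change of C2 was -0.08 (standard error 0.46, adjusted p = 0.9999, edgeR) in a fit that called 0 of all genes. C2 was not called with the ciliary (-1.61) or border macrophage (-1.33) covariate either, in fits that also called 0 of all genes. Nor was it called with the sex covariate (-1.97) or with the 9 cKO mice as one group (-1.93). Leaving out 1 mouse gave log2 fold changes from -2.37 to -1.63 and kept the call in 2 of 12 fits, those without P30 mouse 1 and without P32 mouse 4. In the other tests against P30, none of the 8 was called, and their median log2 fold changes were -0.13, -0.83 and -0.43 at P32, P34 and P38.

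C1s1, the C1s protease of the C1 complex, was picked after its values were seen. It had 1.80, 2.20 and 1.75 CPM at P30, 0.542 to 1.73 at P32, 0.440 to 0.718 at P34 and 0.849 to 1.92 at P38 (log2 fold change at P34 -1.73, adjusted p = 0.129, edgeR). Masp2, the protease of the lectin pathway, also picked after its values were seen, differed widely within groups, with 7.62, 9.37 and 0.505 CPM in the 3 P30 mice. The lectin Mbl1 had 0 counts in all 12 mice.

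Of the 3 further genes of the alternative pathway only Cfp passed the filter. Cfp, properdin, had 13.8 to 19.4 CPM at P30 and 7.95 to 14.6 CPM at P34 (log2 fold change -0.55, adjusted p = 0.461, edgeR). Cfb and Cfd, the factors B and D that form the alternative convertase, had at most 1 and 5 counts in a mouse. In the terminal pathway C8g was the 1 gene of 7 that was tested, with 0.493 to 1.14 CPM and no call, and C8b had at most 0.169 CPM.

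Regulators of complement were the abundant part of the system. Of 19 genes 18 were tested, none was called at any age, and the median log2 fold changes were -0.20, 0.06 and 0.01 at P32, P34 and P38. Vtn, vitronectin, had 893 to 1447 CPM and Clu, clusterin, 423 to 1069 CPM. Both hold back the terminal complex and are made by other retinal cells. Serping1, the inhibitor of the C1 proteases, was picked after its values were seen. It had 17.2, 14.1 and 13.6 CPM in the controls (P30). The P32 mice had 17.6, 17.5 and 7.15, the P34 mice 5.27, 3.82 and 5.38 and the P38 mice 17.9, 12.8 and 8.72. The P34 mice were below all others, an order that 9.67% of all genes showed against P30. The log2 fold change against P30 was -1.63 (standard error 0.34, adjusted p = 0.0570, edgeR), just short of the threshold.

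Among 8 complement receptors, 4 were tested and none was called. Itgam and Itgb2, the chains of complement receptor 3, had 0.475 to 0.828 and 0.270 to 0.862 CPM, and Vsig4, the receptor that defines some tissue macrophages, had 0 counts in all mice. C3ar1, the receptor for C3a, chosen after its values were seen, had 0.565 to 0.624 CPM at P30 and 0.238 to 0.469 CPM in the 9 cKO mice. All 9 were below all 3 controls, an order that 0.478% of all genes showed, but the log2 fold change of -0.75 did not pass the threshold (standard error 0.25, adjusted p = 0.628, edgeR).

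**Figure D4:**
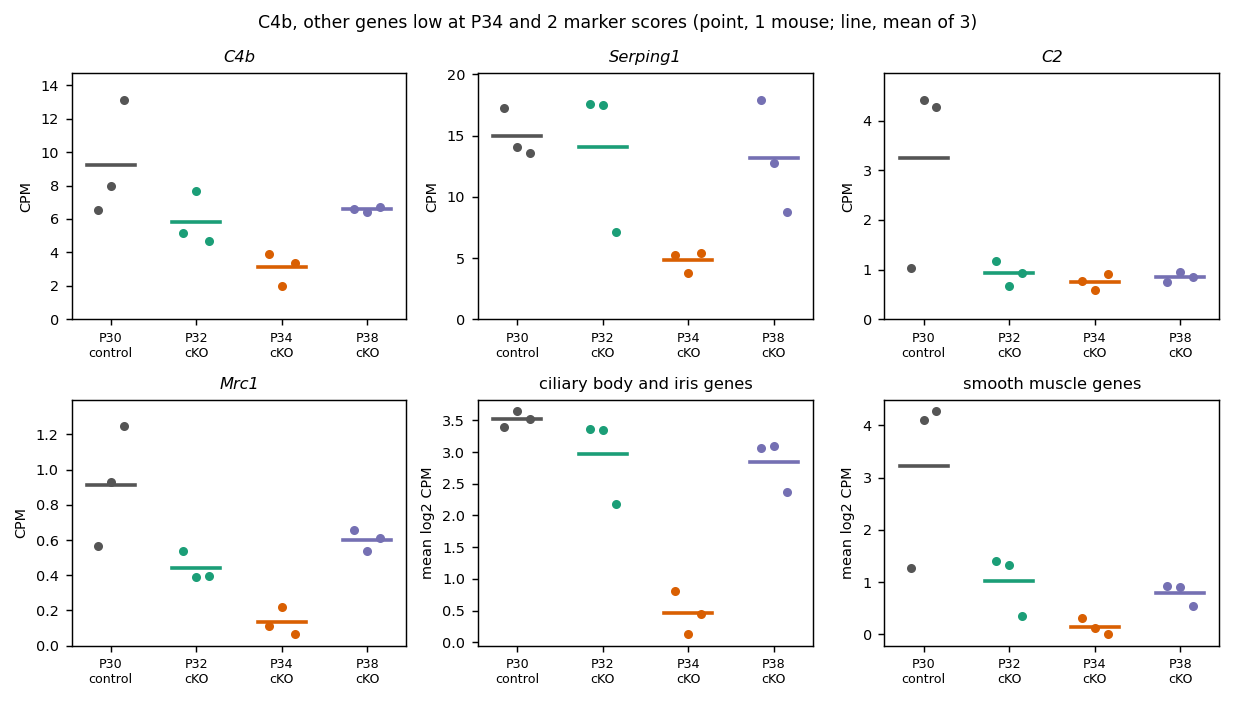
Level per mouse of C4b, Serping1, C2 and Mrc1 (CPM, linear axis from 0) and mean log2 CPM of 6 ciliary body and iris genes and 5 smooth muscle genes, where a point is 1 mouse and a line the mean of 3. C4b, Serping1, Mrc1 and the ciliary genes are lowest in the 3 P34 mice, and C2 and the smooth muscle genes are highest in P30 mice 2 and 3.

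The fall of C4b at P34 came with other cell type markers. Of 6 ciliary body and iris genes, 5 were called lower at P34 (Optc, Best2, Otx1, Zic1 and Zic2), with a median log2 fold change of -2.59. Of 5 smooth muscle genes, 4 were tested and all 4 called lower at P34 (Myh11, Acta2, Tagln and Myl9), with a median of -4.04, and 2 of 10 genes of pigment epithelium and melanocytes (Tyrp1 and Mlana). The calls at P34 held in 14 to 20 of 22 alternatives for the ciliary genes and in 9 to 11 for the smooth muscle and pigment genes. In the 9 cKO mice together, Optc and Best2, the 4 smooth muscle genes, and Tyr, Tyrp1, Pmel, Mlana and Dct were called lower. These calls held in 5 (Acta2) to 16 of 22 alternatives and were lost without P30 mouse 2, when 0 genes were called. P30 mouse 1 lay within the cKO range for Acta2, Myh11, Tagln, Tyr, Pmel, Mlana and Dct, so that P30 mice 2 and 3 carried the difference there. Of the 8 lens genes 0 were called. All 8 were lower at P34 by unadjusted p (5.42% of all genes), with a median log2 fold change of -5.11. Their summed CPM ranged from 451 to 32061 in the P30 mice, from 614 to 36238 at P32, from 218 to 601 at P34 and from 4532 to 11238 at P38. The P34 mice overlapped the controls in this sum. By mean log2 CPM they lay at 2.48 to 3.78, below the P30 mice at 3.80 to 10.48. The part of these cells in the level of C4b was not tested, since the ciliary genes separated the P34 mice from all others.

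Markers of other cells did not pass at any age. None of 6 endothelial, 8 Müller glia and astrocyte, 10 photoreceptor and 8 bipolar, amacrine and ganglion cell genes was called against P30, and their median log2 fold changes at P34 were -0.07, 0.05, 0.13 and 0.12. None of the 6 neutrophil genes was tested, S100a8 and S100a9 having at most 0.390 and 0.420 CPM, and of 9 lymphocyte genes the 2 tested were uncalled. Blood genes, 5 of 5 tested, were uncalled, and the hemoglobin gene Hbb-bs was highest in P32 mouse 4 with 116 CPM.

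The genes whose levels were most like the mean log2 CPM of the 8 microglial genes (the 10 without C3 and C4b), among 14808 other genes with a mean of at least 1 CPM, were Fxyd6 (Pearson's r = 0.88), Gm11960 (0.86), Ctsa (0.86), Glo1 (0.84) and Ctss (0.83), followed by 1110012L19Rik, Wrb, Ociad1, Ighm and Cstb (0.81 to 0.82). The correlations are over 12 mice that share depth and the length effect of P32 mouse 4, and are given as a description. Of the 10, Ctss is in the list of myeloid genes.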

How the data were processed

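Total RNA of whole retinas from 12 mice was made into stranded mRNA libraries by the authors and sequenced as 50 bp single reads. The authors mapped reads to mm10 with STAR 2.5.3a and counted those with a unique position on genes with HTSeq 0.6.1p1 (union mode, Ensembl annotation), and deposited raw counts per gene and mouse, without normalization. The strand option is not given in the sources used here.

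Symbols and GRCm38 positions came from GENCODE M21, which named 54079 of 54146 genes (99.9%). In R 4.3.3, edgeR 4.0.16 scaled the counts (TMM) and removed rarely counted genes (filterByExpr), and its quasi-likelihood model was fitted to the 12 mice together, with a mean for each of the 4 conditions. Each cKO age, and the mean of the 3 ages, was compared with P30, and the ages with each other. P-values were adjusted by Benjamini-Hochberg over 18628 genes, and the limits for a call were 0.05 for the adjusted p and 0.5 for the size of the log2 fold change. Standard errors are the fold change divided by the root of the F statistic. Log2 CPM used a prior count of 2. Simulated counts with 200 changed genes were used to test the fit. DESeq2 1.42.0, other filters and scalings, covariates and leaving out each mouse were alternatives.

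The members, the gene lists and the tests were chosen with earlier results of these data known. Named genes are the 10 members, list genes called against P30, the 2 genes of highest CPM in lists without a call, and the 10 genes most correlated with the microglial members. Others are marked as chosen after their values were seen, and C4a, Lyve1, Ccr2, Mbl1, Cfb and Vsig4, not marked where they are named, were also chosen in that way. Some genes that the rule names are not reported here. Libraries held 29701483 to 60145034 counts on genes. No pair within a group held the same counts (chi-square per degree of freedom 19.7 to 254). Nothing states separate cohorts beyond 1 mouse per library. Promoters were taken from RefSeq (GRCm38.p6), and figures were drawn with matplotlib 3.10.9.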

Additional observations from a re-analysis of the deposited data

Results flagged for a closer look

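Differences between cKO ages under the same contrast with P30 passed for 2 ciliary body genes, which like C4b were lowest in the P34 mice. A link between them and C4b was not tested. Optc, opticin, differed by a log2 fold change of -4.64 between P34 and P32 and of 4.11 between P38 and P34, and Best2, an anion channel of the ciliary epithelium, by -5.43 and 4.73 (edgeR, each past the threshold). Best2 had 9, 3 and 2 counts in the P34 mice. None of the 10 microglia and complement genes differed between cKO ages in edgeR. In the 9 cKO mice taken as one group, no value of the 10 genes lay apart from the rest by Dixon's criterion (critical value 0.493).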

How the results depend on the processing

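Of 1533 values of the 10 genes (70 gene and comparison pairs under up to 23 alternatives, as the stricter filter dropped Aif1 and 2 alternatives did not apply to every comparison), 1510 kept their side of the threshold and their direction, counting as kept 109 changes of sign of uncalled values below their own standard error. C4b at P34 was called with RLE size factors, without a filter, with a stricter one, in a robust fit and in DESeq2. It was not called with a covariate for ciliary body (log2 fold change -0.28), smooth muscle (-0.72), border macrophages (-0.94) or sex (-1.46), or with only the P30 and P34 mice (-1.59), and those 5 fits called 0 of the 10 genes at P34. Leaving out 1 mouse gave 0 to 1 of the 10. The cause was not tested. With the ciliary covariate the sign turned for Tyrobp at P34 (0.22) and in all cKO mice (0.040), for C1qa (0.29) and C4b (0.14) at P34 against P32 and for C3 at P38 against P34 (-0.48), and with the smooth muscle covariate for C4b at P38 (0.20), none of them called. By unadjusted p, 1 of the 10 was called at P32, at P38, in all cKO mice and at P38 against P34, and 2 at P34 against P32 and at P38 against P32. DESeq2 called 1 (C4b) in all cKO mice, at P34 against P32 and at P38 against P34. At P34 against P32, leaving out 1 mouse called 0 to 1 of the 10, the 1 being C4b without P32 mouse 6.

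Counts over all genes moved more. DESeq2 called 25, 369, 45 and 151 genes at P32, P34, P38 and in all cKO mice, and 1392, 144 and 894 at P34 against P32, P38 against P34 and P38 against P32. No filter on low counts gave 23, 298, 18, 147, 656, 115 and 201 genes in that order, and unadjusted p 540, 1168, 645, 550, 2687, 709 and 2220. The ciliary covariate left 0 genes at P34, in all cKO mice, at P34 against P32 and at P38 against P34. The border macrophage covariate left 0, 0, 8 and 0 there and 2 at P38 against P32, and the smooth muscle covariate 8 at P34 and 0 in all cKO mice. Sex as a covariate left 21 genes in all cKO mice and 92 at P34 against P32, the 9 cKO mice as one group 10, and only the conditions compared 229 at P34 and 11, 71 and 1 between ages. Leaving out 1 mouse gave 0 to 19 genes at P32, 43 to 213 at P34, 0 to 13 at P38, 0 to 108 in all cKO mice, 14 to 2726 at P34 against P32, 8 to 58 at P38 against P34 and 0 to 1946 at P38 against P32. The highest of these at P34 and in the 3 comparisons between ages came without P32 mouse 6, those at P32, at P38 and in all cKO mice without P30 mouse 1, and 0 in all cKO mice without P30 mouse 2. Without P34 mice 7, 8 and 9 the counts at P34 were 54, 43 and 49. No paired analysis was possible because the groups share no replicate numbers.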
